A study of Mus musculus with 5 samples.

Results

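The 9 genes described here encode enzymes of haem synthesis and breakdown: Alas1, Alas2, Alad, Uros, Urod, Cpox, Ppox and Fech, which act in synthesis, and Hmox1, which acts in breakdown. They were named by their place in the pathway and not by a threshold on measured values, with earlier results of these data known, from the 31626 genes of each deposited table, and each had 1 row. Not every enzyme of the pathway is among them. The data are RNA-seq libraries of C57Bl/6 mouse common myeloid progenitors that a retroviral vector, MSCV-MN1-IRES-GFP, had transformed with the leukaemia gene MN1 and marked with GFP. The Mll1 knockout group (2 libraries) carried floxed Mll1 alleles and received Cre, which the labels give as genotype -/-. The control group (3 libraries) had the same MN1 vector and flox/flox genotype and received a control transduction. All cells grew in M3234 medium with FBS, IL3, IL6 and SCF, and were sorted on day 7 after the transduction with Cre or control. Effects of Cre and of Mll1 loss cannot be told apart, since wild type cells with Cre were not analysed here. Whether the replicates are separate mice or cultures is not stated in the labels, and p-values therefore cover the spread of these 5 libraries alone, which may be technical.

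Haem is the iron-porphyrin group that carries oxygen in globins and electrons in cytochromes, and that myeloperoxidase and the NADPH oxidase of granulocytes need for their activity. Its synthesis begins in the mitochondrion with 5-aminolevulinate synthase, the rate-limiting step, goes on in the cytosol and ends in the mitochondrion with the insertion of iron. The synthase has a ubiquitous form, encoded by Alas1 and repressed by haem, and an erythroid form, encoded by the X-linked Alas2, whose transcription is known to depend on GATA1 in red cell precursors. Haem oxygenase 1, the product of Hmox1, opens the haem ring to biliverdin, iron and carbon monoxide, and its gene is repressed by BACH1 and induced by NRF2.

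The promoters of both synthase genes are shown because these were the members that rose. The sequences are the 250 bases before a RefSeq start, from RefSeq on GRCm38.p6 (the expression tables use mm9), and capitals mark every match to a searched motif. For Alas1, on the minus strand at chr9:106247955-106248204, the start is the more upstream of the pair listed. For Alas2, the stretch lies on the plus strand at chrX:150547167-150547416.
Alas1: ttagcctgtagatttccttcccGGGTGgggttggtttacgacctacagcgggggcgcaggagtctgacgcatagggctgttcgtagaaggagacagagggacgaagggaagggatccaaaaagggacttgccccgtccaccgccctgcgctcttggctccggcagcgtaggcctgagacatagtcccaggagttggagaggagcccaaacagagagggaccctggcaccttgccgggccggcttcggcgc
Alas2: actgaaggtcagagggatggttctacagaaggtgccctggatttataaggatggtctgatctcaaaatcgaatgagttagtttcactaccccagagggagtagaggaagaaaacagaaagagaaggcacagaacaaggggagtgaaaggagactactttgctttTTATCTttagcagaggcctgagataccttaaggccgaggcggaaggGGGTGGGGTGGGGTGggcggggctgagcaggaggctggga

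Both strands were searched for a GATA factor motif spelled AGATAA, for its other spelling TGATAA, for the KLF factor motif CACCC, for the palindrome of nuclear respiratory factor 1 and for the core of the antioxidant response element, TGACNNNGC. No match overlaps another in these stretches, although the copies of CACCC in Alas2 adjoin. The window was 250 bases before to 50 after a start, and 7 of the 9 members had an entry, with 10 starts in all. Alas2 held AGATAA on the reverse strand (TTATCT above), its first base 86 bases before the start, and 3 reverse copies of CACCC that begin 40, 35 and 30 bases before it. Alas1 held a reverse copy of CACCC, its first base 228 bases before the start shown. Beyond the stretch shown, its window held a forward copy of CACCC that begins at base 22 from that start and the palindrome, which begins at base 30. These lie 203 and 195 bases before the downstream start. A GATA motif of either spelling occurred in 18.6% of the 32851 promoters in the table, CACCC in 57.5% and the palindrome in 0.971%. Among the other members, GATA motifs were present in Cpox (both spellings) and at 1 of the 2 Uros starts, CACCC in Alad, Urod and Cpox, and the palindrome occurred in Alas1 alone of the 7. TGACNNNGC, present in 12.4% of all promoters, was found at none of the 10 starts. A match is a run of letters and not a measured binding site.

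Values are FPKM, which divide a gene's fragments by its length and by the size of the library, so levels can be compared between genes. Comparison between libraries also depends on scaling: calls that rose were 39.0% of all with no further scaling and 48.9% after median-ratio scaling. The tables hold no counts and absolute depth is unknown; the commonest ratio of low genes to control replicate 1 was between 0.979 and 1.018 in the other libraries. The 11780 genes that reached 1 FPKM in 2 or more libraries were tested with limma on log2(FPKM + 1), and a gene was called at a Benjamini-Hochberg adjusted p under 0.05. All 9 members passed this filter, Alas2 through both knockout libraries and control replicate 1. Mll1 itself stood at 6.22 and 5.32 FPKM in the knockout libraries and at 9.67, 7.28 and 7.19 FPKM in control replicates 1, 2 and 3 (limma adjusted p = 0.158); the labels do not say which exons are floxed. Control replicate 1 stood apart from the other controls in maturation genes, with a summed 6435 FPKM of 14 neutrophil markers against 824 and 1083 FPKM, so counts and values are also given without it where it moves them most; that fit called 31.1% of all tested genes (12.4% rose and 18.8% fell). Of 12 myeloid progenitor markers, all 12 passed the filter, 4 rose (Spi1, Csf2rb, Csf2rb2 and Mpo) and 2 fell (Flt3 and Cd34). Their median log2 change was -0.27. With all libraries 3.82% of all tested genes rose and 5.97% fell. Without control replicate 1, 4 of these markers rose and 3 fell. Kit and Cd34, which are among the markers of the labelled cell type, stood at 57.1 to 61.0 and 212 to 216 FPKM in knockout libraries. In controls they stood at 64.6 to 112 and 587 to 685 FPKM. Kit was not called (limma adjusted p = 0.266), and its control values were 112, 75.4 and 64.6 FPKM in replicates 1, 2 and 3.

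Both synthase genes rose in the Mll1 knockout libraries, and none of the other 7 members was called. Thus 2 of 9 members rose and 0 fell, where 3.82% of all tested genes rose, 5.97% fell and 9.79% were called in either direction. Alas2 reached 1 FPKM in control replicate 1 alone of the controls, so it was tested only because of the knockout libraries. Its call therefore adds no support to this count. With no filter on low values, Alas2 was still called (limma adjusted p = 0.0398) and Alas1 was not (0.0627). Alas1 and Alas2 were the only members with an unadjusted p under 0.05. The median log2 change of the 9 was 0.033, and that of all tested genes -0.028. The knockout libraries lay above every control for 4 members, Alas1, Alas2, Alad and Cpox, and below every control for none, against 22.9% and 29.4% of all tested genes.

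**Figure D1:**
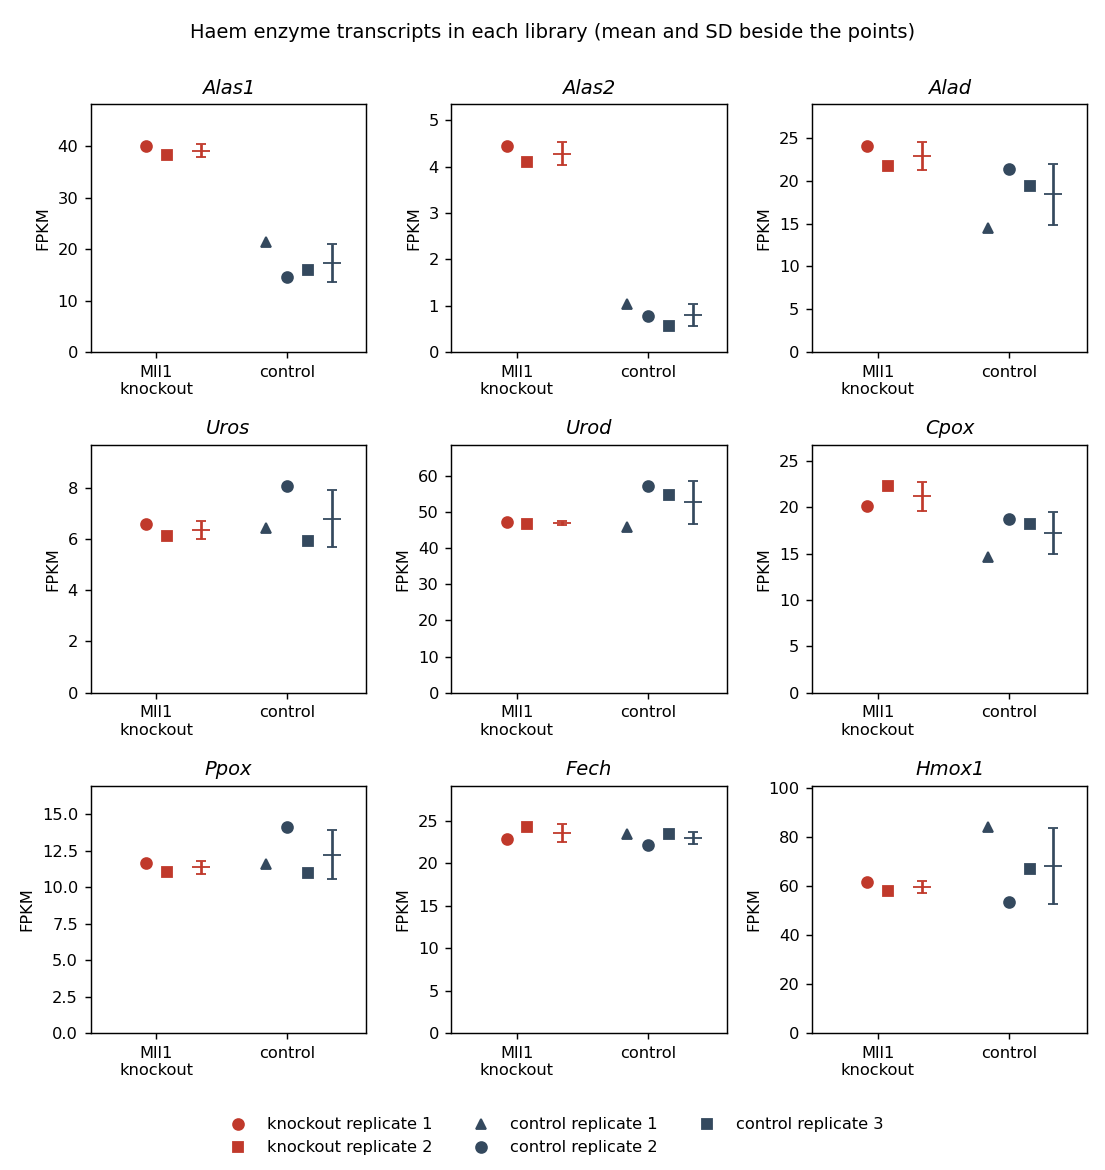
FPKM (linear axis from 0, a separate scale for each gene) of the 9 haem enzyme genes in 2 Mll1 knockout libraries (red) and 3 control libraries (blue), 1 point per library, with the mean and SD drawn beside the points. The groups are far apart for Alas1 (38.2 to 40.1 against 14.6 to 21.4 FPKM) and Alas2 (4.11 to 4.45 against 0.558 to 1.03 FPKM), and overlap for Uros, Urod, Ppox, Fech and Hmox1.

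Alas1, the housekeeping synthase gene, had 40.1 and 38.2 FPKM in the knockout libraries, against 21.4, 14.6 and 15.9 FPKM in control replicates 1, 2 and 3. Both knockout values were well above the highest control, and control replicate 1 was the control nearest to them. The means were 39.1 ± 1.32 FPKM (SD, n = 2) in knockouts and 17.3 ± 3.62 FPKM (SD, n = 3) in controls, 2.26-fold higher in knockouts. On the log2(FPKM + 1) scale the change was 1.15 (SE 0.17, 95% interval 0.71 to 1.59, limma adjusted p = 0.0251). The exact two-sided permutation of the 5 libraries gave p = 0.1, the smallest that 10 splits allow. The call was lost without control replicate 2 (adjusted p = 0.0731), control replicate 3 (0.0815), knockout replicate 1 (0.206) or knockout replicate 2 (0.202), and when low genes were not filtered out (0.0627), while the log2 change stayed between 1.05 and 1.19 in these 5 fits. Without control replicate 1 it was 1.31, with an adjusted p of 0.00319. With the replicate number as a block the change was 1.10, and the call was also lost (limma adjusted p = 0.0986).

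Alas2, the erythroid synthase gene, had 4.45 and 4.11 FPKM in the knockout libraries, against 1.03, 0.780 and 0.558 FPKM in the controls. It was the lowest of the 9 members in every library, and the groups were separated by a gap larger than the spread within either. The means were 4.28 ± 0.243 FPKM (SD, n = 2) in knockouts and 0.790 ± 0.236 FPKM (SD, n = 3) in controls, a 5.42-fold difference in FPKM. The change on the log2(FPKM + 1) scale, which understates low genes, was 1.57 (SE 0.16, 95% interval 1.16 to 1.97, limma adjusted p = 0.0135), and pseudocounts of 0.1 and 5 gave 2.33 and 0.68, called in each. The exact permutation test again gave p = 0.1. With the replicate number as a block the log2 change was 1.47 and was not called (limma adjusted p = 0.0871). The call was lost without control replicate 2 (adjusted p = 0.0594), knockout replicate 1 (0.163) or knockout replicate 2 (0.169), with log2 changes of 1.52 to 1.62. In GENCODE M21, 311 of the 2403 exon bases of Alas2 lie opposite exons of Apex2, and the use of strand in the counting is not given in the sources used here. Apex2, which encodes a DNA repair nuclease, stood at 5.91 and 6.08 FPKM in knockouts and at 6.52, 4.65 and 5.27 FPKM in controls (limma adjusted p = 0.623), so its own level overlapped between the groups.

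Per length, Alas1 was the main synthase transcript in every library. Alas2 made up 9.997% and 9.71% of the summed FPKM of both genes in the knockout libraries, against 4.59%, 5.08% and 3.39% in the controls. The share was thus higher in both knockouts than in any control, by 5.50 percentage points on average (exact permutation p = 0.1, the smallest possible). The sum of both was 44.5 and 42.3 FPKM in knockouts and 22.4, 15.4 and 16.4 FPKM in controls.

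The other 6 synthesis enzymes, from Alad to Fech, were not called. Their summed level was 133 and 132 FPKM in the knockout libraries and 117, 142 and 133 FPKM in controls, so the knockouts lay within the control range (exact permutation p = 1). Control replicate 1 was the lowest library. Both knockouts, at 132.62 and 132.18 FPKM, lay below control replicates 2 and 3, at 141.71 and 132.85 FPKM. The share of the synthase genes in the summed FPKM of all 8 synthesis members was 25.1% and 24.2% in knockouts, against 16.1%, 9.78% and 11.01% in controls (exact permutation p = 0.1). The sum over all 8 was 176 ± 1.88 FPKM (SD, n = 2) in knockouts and 148 ± 9.10 FPKM (SD, n = 3) in controls, a difference of 27.4 FPKM, of which the synthase genes made up 25.3 FPKM.

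**Figure D2:**
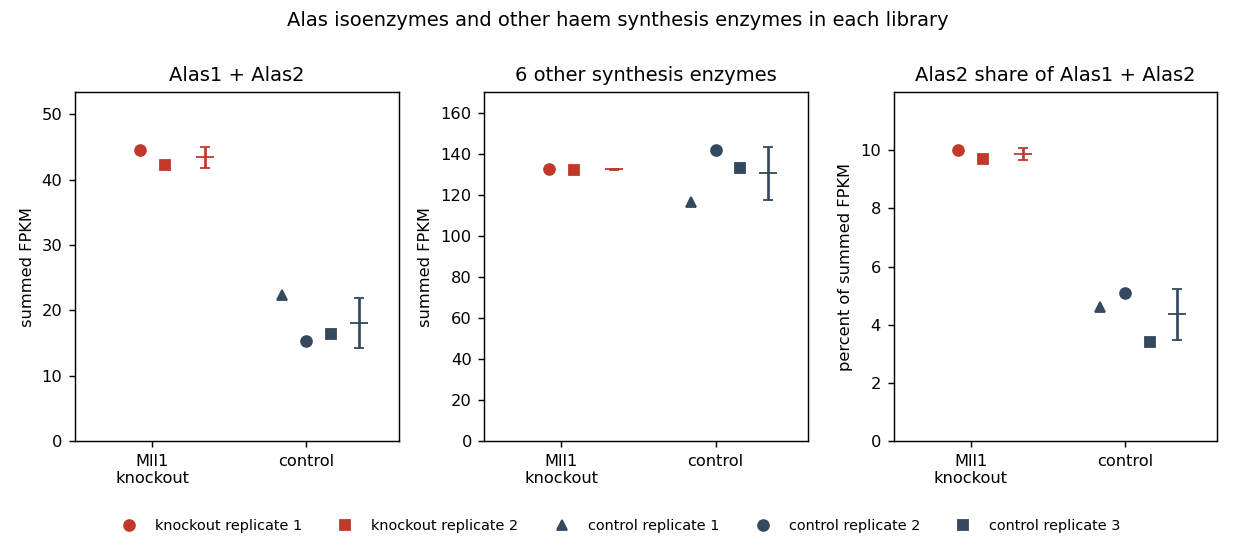
Summed FPKM of Alas1 and Alas2 (left), summed FPKM of Alad, Uros, Urod, Cpox, Ppox and Fech (middle) and the percent of Alas1 plus Alas2 FPKM that was Alas2 (right), 1 point per library with mean and SD beside, for 2 Mll1 knockout (red) and 3 control libraries (blue); axes start at 0. The synthase sum is 42.3 to 44.5 FPKM in knockouts and 15.4 to 22.4 FPKM in controls, while the middle panel shows 132 to 133 FPKM in knockouts inside the control range of 117 to 142 FPKM.

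Among the cytosolic steps, Alad, whose product joins a pair of aminolevulinate molecules into porphobilinogen, had 24.1 and 21.8 FPKM in knockouts and 14.4, 21.4 and 19.4 FPKM in controls. Both knockout values were above the controls, but knockout replicate 2 exceeded control replicate 2 by little, and control replicate 1 was the lowest library. The log2 change of 0.32 (95% interval -0.14 to 0.77) was not called (limma adjusted p = 0.295), and it was 0.16 without control replicate 1. Uros, which encodes the synthase that closes the uroporphyrinogen ring, stood at 6.60 and 6.11 FPKM in knockouts, between the controls at 6.42, 8.07 and 5.92 FPKM. Its log2 change was -0.08 (95% interval -0.44 to 0.29), and it turned to 0.04 without control replicate 2 and under quantile normalization.

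Urod, the decarboxylase gene of the next step, was the most abundant synthesis member, with 47.3 and 46.7 FPKM in knockouts and 46.0, 57.2 and 54.9 FPKM in controls. Control replicate 1 lay just below the knockouts and the other controls above them, so the groups overlapped, with a log2 change of -0.16 (95% interval -0.44 to 0.13, limma adjusted p = 0.408). Without control replicate 1 the change was -0.25 and passed the test (adjusted p = 0.0302), in the fit that called 31.1% of all tested genes.

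Of the mitochondrial steps, Cpox, the oxidase gene for coproporphyrinogen, had 20.1 and 22.3 FPKM in knockouts, above the controls at 14.7, 18.8 and 18.25 FPKM. The gap between the groups was smaller than the range of the controls, and the log2 change of 0.29 (95% interval -0.04 to 0.63) was not called (limma adjusted p = 0.215), and it was 0.18 without control replicate 1. Ppox, which encodes protoporphyrinogen oxidase, stood at 11.7 and 11.03 FPKM in knockouts and at 11.6, 14.1 and 10.98 FPKM in controls. Both knockout values lay within the control range (log2 change -0.09, 95% interval -0.41 to 0.23), and 791 of its 4515 exon bases lie opposite B4galt3, so reads of that gene may enter its value.

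Fech, the ferrochelatase gene that inserts iron into protoporphyrin, was the steadiest member. It had 22.8 and 24.3 FPKM in knockouts and 23.4, 22.2 and 23.4 FPKM in controls, with a log2 change of 0.03 and the narrowest interval of the 9 (-0.16 to 0.22). At the other end of the pathway, Hmox1 had 61.5 and 57.9 FPKM in knockouts and 84.2, 53.5 and 66.8 FPKM in controls. The controls enclosed both knockout values, and control replicate 1 was the highest library. The log2 change was -0.16 with a wide interval (-0.67 to 0.34, limma adjusted p = 0.62), and it was -0.0028 without control replicate 1.

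**Figure D3:**
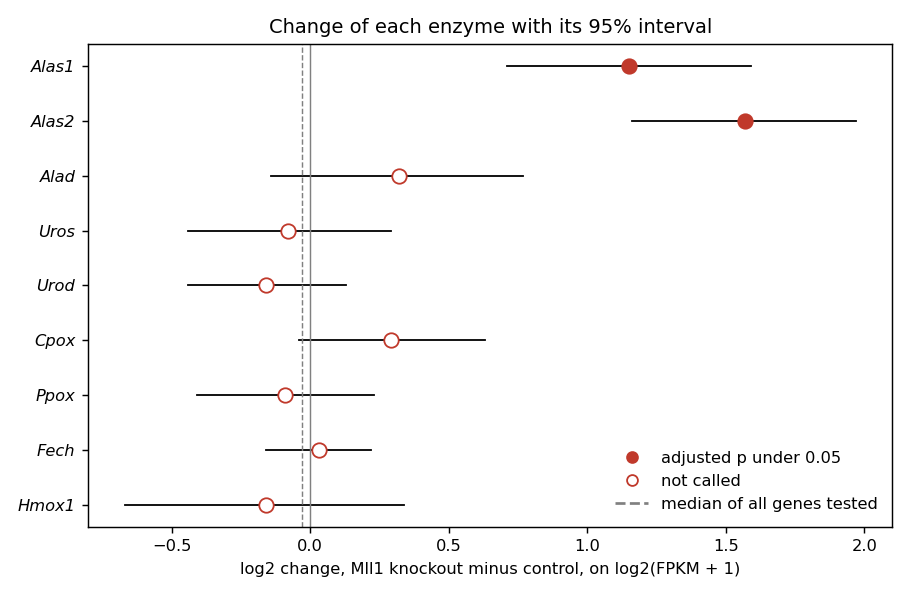
Log2 change (Mll1 knockout minus control, log2(FPKM + 1) scale) of each enzyme gene with its 95% interval from limma; filled points passed an adjusted p of 0.05, the dashed line is the median of all tested genes. The intervals of Alas1 (0.71 to 1.59) and Alas2 (1.16 to 1.97) lie above 0, and those of the other 7 genes include 0.

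The order of the levels was nearly the same in both groups, apart from Alas1. In the knockout libraries Hmox1 (59.7 FPKM on average) was followed by Urod (47.0), Alas1 (39.1), Fech (23.5), Alad (23.0), Cpox (21.2), Ppox (11.4), Uros (6.36) and Alas2 (4.28). In the controls Hmox1 (68.2 FPKM) and Urod (52.7) also led, followed by Fech (23.0), Alad (18.4), Alas1 (17.3) and Cpox (17.2). In knockouts the library ranges of Fech and Alad, and of Alad and Cpox, overlapped, while Alas1 overlapped neither of its neighbours. In controls the ranges of Hmox1 and Urod, of Alad and Alas1, and of Alas1 and Cpox overlapped.

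By the root mean square difference of log2(FPKM + 1), centred on the control mean, over the 5 libraries, the profiles nearest to Alas1 were those of Ccno (0.0298), a cyclin-family gene, and Inpp5j (0.0440), an inositol phosphatase gene. Ccno stood at 5.90 and 5.86 FPKM in knockouts and at 2.70, 1.65 and 1.90 FPKM in controls. Nearest to Alas2 were Mapk13 (0.0860), which encodes a p38 kinase, and Pdyn (0.103), the prodynorphin gene. Mapk13 stood at 16.7 and 18.1 FPKM in knockouts and at 6.22, 5.06 and 4.93 FPKM in controls.

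Regulators of haem synthesis were for the most part not called: of 21 tested, 3 rose and 0 fell (5 and 1 at an unadjusted p under 0.05), with a median of 0.099. The shares over all tested genes were 3.82% and 5.97%. Ireb2, which encodes an iron regulatory protein that binds iron-responsive elements such as that of the Alas2 mRNA, rose to 144 and 143 FPKM in knockouts, against 51.8, 30.6 and 37.0 FPKM in controls (limma adjusted p = 0.0172). Gata1, the erythroid transcription factor gene, had 14.6 and 14.1 FPKM in knockouts and 9.64, 9.80 and 8.85 FPKM in controls (adjusted p = 0.0250). Klf1, an erythroid Krüppel-like factor gene, had 2.11 and 2.81 FPKM in knockouts and 1.15, 1.04 and 0.913 FPKM in controls (adjusted p = 0.0439). In all 3 genes the knockout libraries stood above every control. Bach1, the repressor gene of Hmox1, stood at 24.3 to 25.0 FPKM in knockouts and 20.3 to 25.7 FPKM in controls (limma adjusted p = 0.574). Nrf1, the gene of nuclear respiratory factor 1, stood at 21.1 to 21.5 FPKM in knockouts and 18.7 to 22.8 FPKM in controls (adjusted p = 0.960). Nfe2l2, which encodes NRF2, stood at 21.9 to 22.7 FPKM in knockouts and 13.1 to 19.6 FPKM in controls (adjusted p = 0.154). These 3 were singled out after their values were seen. Without control replicate 1 the counts were 5 and 4 of 21, where 12.4% of all tested genes rose and 18.8% fell.

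NRF2 target genes, with which Hmox1 is often induced, had 4 of 18 members that rose and 0 that fell (7 and 0 at an unadjusted p under 0.05), a median of 0.41, while Hmox1 itself was not called. Over all tested genes, 3.82% rose and 5.97% fell. Gsr, the glutathione reductase gene, rose to 345 and 352 FPKM in knockouts, against 137, 91.4 and 116 FPKM in controls (limma adjusted p = 0.0156). Nqo1, a quinone reductase gene, had 27.4 ± 1.48 FPKM (SD, n = 2) in knockouts and 13.5 ± 1.15 FPKM (SD, n = 3) in controls (limma adjusted p = 0.0132). Pgd, of the pentose phosphate pathway, averaged 270.2 FPKM in knockouts and 155 FPKM in controls, and Srxn1, the sulfiredoxin gene, 11.2 FPKM in knockouts and 7.90 FPKM in controls. The controls varied in this list too: its summed level was 5277 and 5441 FPKM in knockouts and 3817, 4682 and 4856 FPKM in controls, lowest in control replicate 1. Without that library the median was 0.17 and 7 members rose, where 12.4% of all tested genes rose.

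Of 10 tested genes of haem and porphyrin transport none was called by limma (4 higher and 0 lower at an unadjusted p under 0.05), where 9.79% of all tested genes were, and their median was 0.069. Nearest to the threshold were Slc25a38, the mitochondrial carrier gene for the glycine that the synthase uses, at 16.1 and 16.2 FPKM in knockouts and 10.05, 12.6 and 11.4 FPKM in controls (adjusted p = 0.0598), and Abcb6, a porphyrin transporter gene, at 12.5 and 11.8 FPKM in knockouts and 6.74, 9.28 and 8.85 FPKM in controls (adjusted p = 0.0925). Of 14 genes of mitochondrial iron and iron-sulphur clusters, 0 rose and 1 fell (1 and 1 unadjusted), with a median of 0.071. That gene was Hscb, a cochaperone of cluster transfer, at 23.7 and 28.7 FPKM in knockouts and 41.6, 50.4 and 39.0 FPKM in controls (adjusted p = 0.0472). None of 5 genes that make haem a, attach haem to cytochrome c or deliver copper was called (0 unadjusted, median 0.081); Cox11 (adjusted p = 0.179) and Cox17 (0.471) had the smallest p. Of the other 3 breakdown genes none was called either (0 unadjusted, median -0.0045): Blvrb, a biliverdin reductase gene, averaged 13.3 FPKM in knockouts and 10.4 FPKM in controls, and Blvra, the other, 25.6 FPKM in knockouts and 27.7 FPKM in controls. Without control replicate 1 the transport genes had 2 that rose and 2 that fell, the iron genes 0 and 3, and the haem a and c genes 1 and 0, in the fit where 12.4% of all genes rose and 18.8% fell. The median of the iron genes was then 0.00018, that of the haem a and c genes -0.012 and that of the breakdown genes -0.1.

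Of 18 tested genes in a list of haem proteins of blood cells and their partners, 4 rose and 0 fell (7 and 1 unadjusted). Over all tested genes, 3.82% rose and 5.97% fell. The list median was 0.25, but only Mpo and Ptgs1 of the 4 encode haem proteins. Mpo, the myeloperoxidase gene, had 2447 ± 88.0 FPKM (SD, n = 2) in knockouts and 924 ± 331 FPKM (SD, n = 3) in controls (limma adjusted p = 0.0469). Ptgs1, the cyclooxygenase 1 gene, had 69.6 ± 1.99 FPKM in knockouts and 29.5 ± 5.80 FPKM in controls (adjusted p = 0.0206). Ncf4 and Ncf1, partner subunits of the NADPH oxidase, averaged 68.3 and 59.1 FPKM in knockouts and 31.9 and 41.7 FPKM in controls. Of 5 tested globin genes 1 rose and 0 fell (1 and 0 unadjusted), with a median of 0.16. It was Hbb-y, an embryonic globin gene, at 3.05 and 2.39 FPKM in knockouts and 0.244, 0.182 and 0.186 FPKM in controls (adjusted p = 0.0119). It passed the filter through the knockout libraries alone, so it had to differ to be tested, and the count is no support for a rise of the globins. Globin genes are near-identical copies, so the split of reads between them is uncertain. Without control replicate 1, 8 of the 18 haem proteins and partners rose and 1 fell, where 12.4% of all tested genes rose and 18.8% fell. In that fit 4 globin genes were tested, 3 rose and 0 fell, with a median of 1.4. Of those tested, Hba-a1, Hbb-b2 and Hbb-y were below 1 FPKM in both remaining controls. They passed the filter through the knockout libraries alone, so this count is no support for a rise of the globins either. In GENCODE M21, exons of Mpo, Ptgs1 and Ncf1 lie in part opposite other annotated genes, which matters if strand was not used. The same holds for Alas1, Cpox, Mll1, Inpp5j, Cd34 and Cox11 above and for Vcam1 below. In Cox11, 688 of the 1423 exon bases lie opposite Tom1l1.

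**Figure D4:**
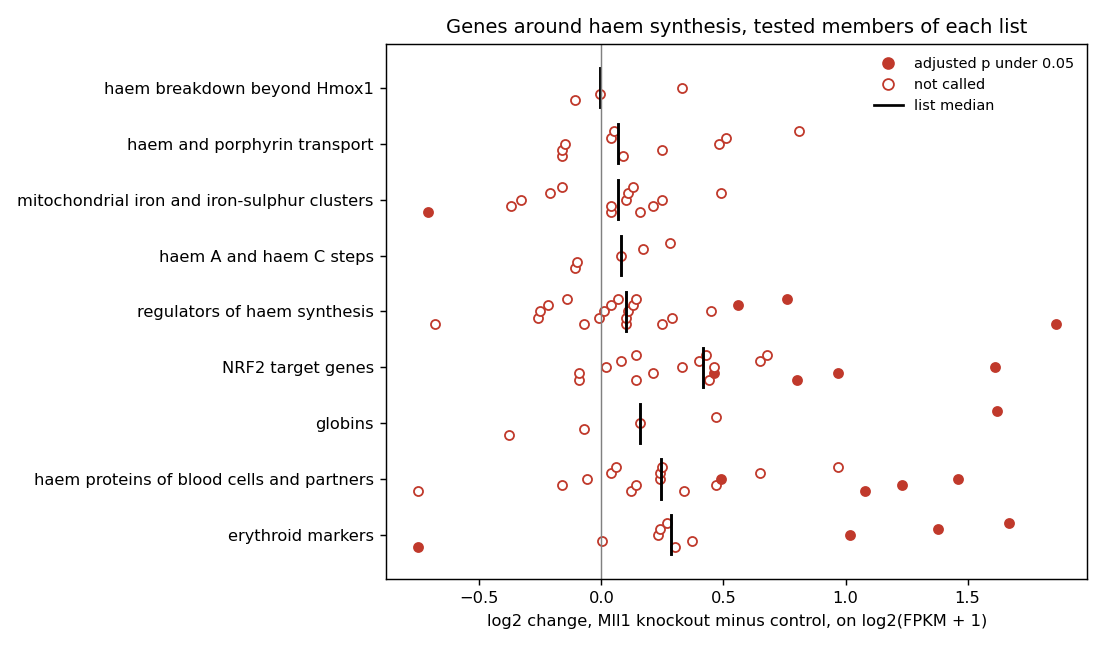
Log2 change (Mll1 knockout minus control, log2(FPKM + 1) scale) of each tested gene in the lists around haem synthesis and in the erythroid marker list, 1 point per gene, filled where the adjusted p was under 0.05, with a bar at the list median; vertical offsets only separate points. List medians run from -0.0045 (haem breakdown beyond Hmox1) to 0.41 (NRF2 target genes), and the called genes are few in each list.

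Markers of other cell types moved in the same libraries, and their part in the rise of the synthase genes was not tested. In bulk RNA, fewer cells of a type and less RNA per cell cannot be told apart. Over all tested genes, 3.82% rose and 5.97% fell, and without control replicate 1, 12.4% and 18.8%. Of 22 erythroid markers, haem enzymes and globins left out, 10 passed the filter, 3 rose and 1 fell (4 and 1 without control replicate 1), and 11 stayed below 1 FPKM in every library, among them Ermap and Kel. Those that rose were Aqp1 (a water channel, 3.99 FPKM in knockouts and 0.567 FPKM in controls on average), Car1 (a carbonic anhydrase, 2.25 FPKM in knockouts and 0.215 FPKM in controls) and Rhag (of the Rh complex, 1.55 FPKM in knockouts and 0.264 FPKM in controls). All 3 were below 1 FPKM in every control and passed the filter through the knockout libraries alone, so the count of rises is no support for a rise of the list. Tfr2, the second transferrin receptor gene, fell to 4.49 FPKM in knockouts, against 8.26 FPKM in controls. The summed erythroid level was 174 and 193 FPKM in knockouts and 136, 158 and 157 FPKM in controls, mostly Tfrc at 128 and 138 FPKM against 93.6, 118 and 118 FPKM. The summed globins were 22.8 and 24.3 FPKM in knockouts and 60.0, 10.96 and 10.2 FPKM in controls, highest in control replicate 1. Alas2 in that library, at 1.03 FPKM, was the highest of the controls but below the knockouts at 4.45 and 4.11 FPKM. Slc4a1, the red cell anion exchanger gene, stood at 0.0531 and 0.218 FPKM in knockouts and at 1.61, 0 and 0.0490 FPKM in controls.

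The sum of the neutrophil markers was 22452 and 20719 FPKM in knockouts and 6435, 824 and 1083 FPKM in controls, and S100a8 and S100a9, neither of them called (adjusted p of 0.0743 and 0.0836), made up most of it. S100a8 stood at 11794 and 10986 FPKM in knockouts and at 3129, 347 and 485 FPKM in controls. The granule genes Camp, Ngp and Ltf were higher in control replicate 1 than in either knockout library, as Ngp shows with 64.7 and 58.3 FPKM in knockouts and 106, 4.05 and 4.52 FPKM in controls. Of 11 neutrophil markers tested 1 rose, Lcn2, and without control replicate 1, 8 rose and 1 fell. For these and the next lists, 3.82% of all tested genes rose and 5.97% fell. Without control replicate 1 these shares were 12.4% and 18.8%. Mast cell and basophil markers had 4 of 10 that rose (Mcpt8, Il1rl1, Hdc and Gata2, and 5 of 10 without control replicate 1). The sum over all 12 of the list was 1562 and 1584 FPKM in knockouts and 886, 1104 and 997 FPKM in controls. Cpa3, which was not called (limma adjusted p = 0.0581), made up 950 and 965 FPKM of it in knockouts and 432, 633 and 581 FPKM in controls. Of 15 macrophage markers, the cell type best known for Hmox1, 5 were tested and none was called by limma (0 higher and 1 lower unadjusted, median -0.58). Without control replicate 1, 1 rose and 1 fell, with a median of -0.036. With all libraries, Cd163 (adjusted p = 0.0621) and Vcam1 (0.194) were nearest to the threshold. Cd163, a scavenger receptor gene, stood at 1.05 and 1.002 FPKM in knockouts and at 2.42, 2.04 and 1.798 FPKM in controls, and Vcam1, an adhesion gene, at 12.9 and 12.9 FPKM in knockouts and at 10.05, 0.432 and 0.542 FPKM in controls. The sum over all 15 macrophage markers was 48.6 and 51.9 FPKM in knockouts and 98.8, 44.8 and 35.2 FPKM in controls. It was highest in control replicate 1, as was Hmox1. Emr1, which was not called (limma adjusted p = 0.506), made up 52.6 FPKM of the sum in that library. Of the 15 markers, 7 stayed below 1 FPKM in every library, and among them Spic and Marco were at 0 in each. Of 4 megakaryocyte markers tested of 10, Itgb3 fell and none rose. The sum over all 10 was 47.7 and 39.5 FPKM in knockouts and 90.2, 71.2 and 58.4 FPKM in controls.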

How the data were processed

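The deposited values are FPKM per Ensembl gene and library, made by the authors with CASAVA 1.8.2, GSNAP, SAMtools and Cuffdiff on build mm9, per the submitters' processing notes. For annotation, multi-mapped reads and strand use, the settings were not given in the sources used here. In 16 genes, none a member, a library held 999999999, which is no FPKM, and the gene was left out. limma 3.58.1 in R 4.3.3 was run on log2(FPKM + 1) over 11780 genes (at least 1 FPKM in at least 2 libraries) with an intensity trend and Benjamini-Hochberg adjustment over all of them. Single values were also tested by two-sided exact permutation over 10 splits. The procedure was tested on simulated data. Of 31610 gene IDs, 26606 matched GENCODE M21 (GRCm38), used for symbols and exon overlaps only. Members and gene lists were chosen with earlier results of these data known. Beside the members and Mll1, the genes named are every called member of a list (up to 6, by p), or the 2 with the smallest p where none was called, and the 2 nearest profiles of each called member; other genes were named after their values were seen. Alternatives covered pseudocount, filter, scaling, empirical Bayes step, replicate block, threshold and each library left out.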

Additional observations from a re-analysis of the deposited data

How the results depend on the processing

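The log2 changes of Alas1 (up to 1.31, lowest with a pseudocount of 5) and Alas2 (0.68 to 2.33) kept their direction in every alternative run. The 2 members called became 1 with no filter on low values (Alas2) and 1 where genes needed a mean of 5 FPKM, so that Alas2 was not tested; 0 with the replicate number as a block, where both kept an unadjusted p under 0.05 (adjusted 0.0986 for Alas1 and 0.0871 for Alas2); and 0 to 3 when single libraries were left out. Over all genes, 1153 calls became 497 with no filter, 2435 at an adjusted p under 0.1, 55 with the replicate block, and between 0 (without knockout replicate 2, by limma, where 1595 had an unadjusted p under 0.05) and 3612 (without control replicate 1) with a library left out. Same-numbered libraries showed little shared deviation (correlations of 0.037 and 0.0123 across genes). With 2 knockout libraries, whose deviations from their mean mirror each other, this cannot exclude that the numbers pair the samples. Leaving out a knockout library leaves 1, which is then assumed to vary like the controls. Directions reversed in members that were not called: Uros to 0.04 under quantile normalization and without control replicate 2, Ppox to 0.0098 without control replicate 2, and Fech to -0.01 without knockout replicate 2; the cause was not tested. With single libraries left out they ran from -0.16 to 0.04, from -0.16 to 0.0098 and from -0.01 to 0.08, in that order of genes. Calls that rose were 39.0% of all with no scaling, 48.9% after median-ratio scaling and 47.9% after quantile normalization. The Alas2 share difference ran from 5.02 to 6.36 percentage points and the summed synthesis difference from 22.6 to 31.7 FPKM. List counts without control replicate 1 were added after seeing the data. The number of reads behind Alas2, below 5 FPKM in every library, is unknown.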
